A study of Homo sapiens with 6 samples.

Results

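The miR-193 and miR-365 clusters are a pair of paralogous loci, each of which encodes a miR-193 hairpin followed by a miR-365 hairpin. All 6 mature microRNAs (miRNAs) chosen by name, miR-193a-5p, miR-193a-3p, miR-193b-5p, miR-193b-3p, miR-365a-3p and miR-365b-3p, were found among the 2656 mature miRNAs of the count table, and all 6 were abundant enough to test. They were measured by small RNA sequencing in KPL4, an established human breast adenocarcinoma line grown in medium with fetal bovine serum, insulin and hydrocortisone. The first group held 3 libraries of estrogen receptor β (ERβ, encoded by ESR2) knockout cells carrying exogenous ERβ, called ERβ libraries 1, 2 and 3. The second held 3 libraries of ERβ knockout cells without it, called knockout libraries S1, S2 and 3. Both groups therefore carried the knockout and differed, per the labels, in the exogenous receptor. How ERβ was introduced, its isoform, and whether 1 knockout clone gave rise to both groups are not stated in the labels. A knockout group with an empty vector is not among the samples, so an effect of the receptor and any further difference between the cultures cannot be told apart. ESR2 itself is not measured by this assay. The labels do not state that replicates came from separate cultures, and p-values then reflect spread that may be technical.

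A miRNA hairpin is cut into 2 strands, named 5p and 3p for the arm they come from. A strand loaded into an Argonaute protein pairs with messenger RNAs mainly through its seed, bases 2 to 8. miR-193a-3p and miR-193b-3p are known as tumour suppressors that restrain the apoptosis inhibitor MCL1 and the kinase KIT. For miR-193b-3p, targets described in breast cancer cells include the estrogen receptor gene ESR1, the urokinase gene PLAU and the cyclin gene CCND1. miR-365-3p also targets CCND1, and in mouse the miR-193b and miR-365 locus has been studied in brown fat differentiation. miR-193a-5p is known to target the p53 relative TP73.

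The mature sequences are shown because they decide which rows of the table measure different molecules. They are RefSeq sequences on GRCh38.p14, 5′ to 3′, with the seed in capitals, and all 6 members had an entry.

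miR-193a-3p: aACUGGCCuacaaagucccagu
miR-193b-3p: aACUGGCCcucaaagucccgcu
miR-193a-5p: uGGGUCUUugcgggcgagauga
miR-193b-5p: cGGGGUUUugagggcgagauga
miR-365a-3p: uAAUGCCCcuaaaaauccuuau
miR-365b-3p: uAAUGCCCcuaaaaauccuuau

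The 3p strands of miR-193a and miR-193b share their seed and 18 of 22 bases. Counted from the 5′ end, with miR-193a-3p first, the differences are U9C, A10U, A20G and G21C. Their 5p strands also share 18 of 22 bases, but 2 of the 4 differences, U5G and C6U, fall in the seed, and the others are U1C and C11A. miR-365a-3p and miR-365b-3p have the same 22 bases, so sequencing cannot tell which locus a miR-365-3p read came from. No other row of the table with a RefSeq mature sequence shared bases 2 to 8 with any member.

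The hairpins are shown with both mature strands in capitals, since the 5p strands of miR-365a and miR-365b, unlike the 3p strands, differ and can be assigned to a locus.

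MIR193B: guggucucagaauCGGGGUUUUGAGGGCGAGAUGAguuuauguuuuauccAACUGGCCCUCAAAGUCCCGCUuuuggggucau
MIR365A: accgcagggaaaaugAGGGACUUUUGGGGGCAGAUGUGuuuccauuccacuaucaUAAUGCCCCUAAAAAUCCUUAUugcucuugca
MIR193A: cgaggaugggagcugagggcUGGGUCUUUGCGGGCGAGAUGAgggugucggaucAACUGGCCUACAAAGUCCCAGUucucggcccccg
MIR365B: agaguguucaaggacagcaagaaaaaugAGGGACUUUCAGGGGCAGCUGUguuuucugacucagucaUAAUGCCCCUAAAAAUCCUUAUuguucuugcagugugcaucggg

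MIR193B (chr16:14303967-14304049, plus strand) and MIR365A (chr16:14309285-14309371, plus strand) lie 5235 bases apart in introns of the long noncoding RNA gene MIR193BHG in GENCODE release 29. MIR193A (chr17:31559996-31560083, plus strand) overlaps no other annotated gene. MIR365B (chr17:31575411-31575521, plus strand) lies 15327 bases downstream of it and overlaps the end of an intron and the start of an exon of the long noncoding RNA gene AC003101.1. The exon covers 31575511 to 31575659, which takes in the 3′ end of the hairpin but neither mature strand.

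Total counts ran from 10288415 to 14296902 in the ERβ libraries and from 10619000 to 12228519 in the knockout libraries. The threshold was a Benjamini-Hochberg adjusted p under 0.05 in edgeR's quasi-likelihood test, which 77 of 783 tested miRNAs passed as higher (9.83%) and 104 as lower (13.3%) in ERβ cells. The balance turned with the scaling, to 123 higher and 70 lower by upper quartiles and 146 higher and 61 lower by library totals. Knockout library S2 stood apart from the other knockout libraries. Over the tested miRNAs the chi-square per degree of freedom was 307 between S1 and S2 and 331 between S2 and 3, against 14.8 between S1 and 3, and 12.2 to 21.2 between pairs of ERβ libraries. Without S2, 122 miRNAs were higher and 157 lower. For this reason results for the members are also given without S2. The epithelial markers, among them miR-200c-3p and miR-141-3p, were abundant, with a summed level of 93107 to 97879 CPM (counts per 1000000 of the TMM-scaled library total) in the ERβ libraries and 94362 to 110373 CPM in the knockout libraries. Of these 7 markers 1 was higher, miR-205-5p, and 3 lower, miR-200c-3p, miR-141-3p and miR-203a-3p. By upper quartiles, or without any 1 of the ERβ libraries, 1 was higher and 0 lower, by library totals 2 were higher and 0 lower, without S1 or knockout library 3 there were 1 of each, and without S2 1 was higher and 5 lower. Markers of stromal, endothelial, muscle, blood, liver and neural cells, of which 7 of 15 could be tested and 0 were higher and 3 lower, summed to 13122 to 14286 CPM in the ERβ libraries and 16585 to 17011 CPM in the knockout libraries. Most of that sum was miR-126-3p, and the neural marker miR-124-3p was at 0 in all ERβ libraries and had 1 count after rounding, in S2, in the knockout libraries. For these markers the counts were 0 higher and 2 lower by upper quartiles, and 1 higher and 2 lower by library totals. The part of other cells in the results below was not tested, and in bulk RNA fewer cells of a type and less RNA per cell cannot be told apart.

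In cells with ERβ, miR-193a-3p fell to 0.660 of its level in knockout cells, and it was the only one of the 6 members that passed the test. Its partner strand miR-193a-5p had a fitted difference of similar size that did not pass. Neither strand of miR-193b passed, nor did either miR-365-3p row. Of the 6 tested members 0 were higher and 1 lower, with a median log2 fold change of -0.12, against -0.01 over all tested miRNAs. The members' median was -0.01 by upper quartiles and 0.03 by library totals, where that of all tested miRNAs was 0.10 and 0.14. The background was high, since 23.1% of all tested miRNAs passed, 9.83% as higher and 13.3% as lower, so 1 of 6 is not a result about the group as a whole. Of the members, 2 had no overlap between groups, as did 39.8% of all tested miRNAs. Log2 fold changes put ERβ over knockout cells and stand beside their standard error, with n = 3 in each group.

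**Figure D1:**
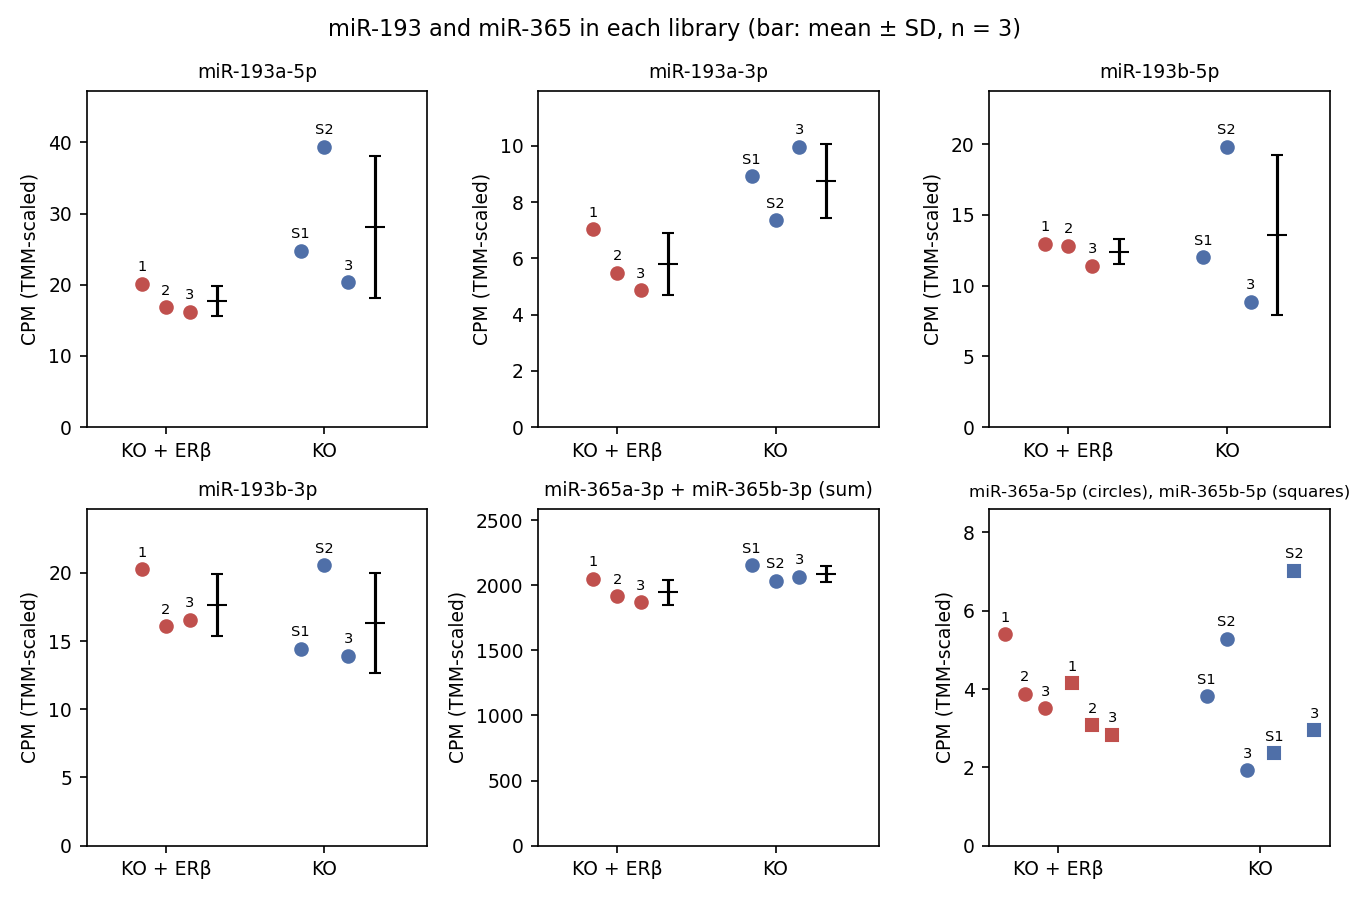
TMM-scaled CPM of the miR-193 strands, the summed miR-365-3p rows and the miR-365-5p strands in each library; red points are the ERβ libraries 1, 2 and 3, blue points the knockout libraries S1, S2 and 3, and black bars the mean ± SD (n = 3 each). miR-193a-3p lay between 4.87 and 7.03 CPM with ERβ and between 7.36 and 9.97 CPM in knockout cells, and S2 was the highest knockout library for miR-193a-5p, miR-193b-5p and miR-193b-3p.

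The strands differed widely in abundance. Summed over both rows, miR-365-3p ranked 70th among all miRNAs by mean CPM once the rows were joined. It made up 97.3 ± 0.167% of the members' counts in ERβ libraries and 96.9 ± 0.872% in knockout libraries (mean ± SD, n = 3 each). All 6 members together held 0.211 ± 0.0144% of all counts in ERβ libraries and 0.204 ± 0.00699% in knockout libraries. These are read numbers, and the strands are of equal length, 22 bases, but ligation and amplification can favour some sequences over others. After miR-365-3p, the order of mean CPM in ERβ cells was miR-193a-5p, miR-193b-3p, miR-193b-5p and miR-193a-3p. miR-193a-5p and miR-193b-3p, at 17.8 ± 2.13 and 17.7 ± 2.28 CPM, did not differ beyond their spread there. In knockout cells the order was the same, and there miR-193b-3p and miR-193b-5p, at 16.3 ± 3.69 and 13.6 ± 5.66 CPM, lay within their spread of each other.

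At the 17q11 locus, miR-193a-3p had 7.03, 5.48 and 4.87 CPM in ERβ libraries 1, 2 and 3, against 8.91, 7.36 and 9.97 CPM in knockout libraries S1, S2 and 3. The lowest knockout library, S2, lay just above the highest ERβ library, so the groups did not overlap but nearly met. The log2 fold change was -0.60 ± 0.18 (95% interval -1.02 to -0.18, edgeR, adjusted p = 0.0441). These values rest on 72 to 98 counts per library, for which counting error alone is 10.1 to 11.8% of the value. The call was lost in 8 of 13 alternatives, with adjusted p from 0.00151 to 0.235. Leaving out S1 (adjusted p = 0.104), knockout library 3 (0.119), ERβ library 2 (0.181) or ERβ library 3 (0.185) each ended it, while without S2 the log2 fold change was -0.72 ± 0.17 and the adjusted p 0.00151.

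The other strand of the hairpin, miR-193a-5p, had 20.2, 16.8 and 16.2 CPM in ERβ libraries 1, 2 and 3, against 24.8, 39.4 and 20.3 CPM in knockout libraries S1, S2 and 3. S2 was far above the rest, and ERβ library 1 and knockout library 3 were almost level, so the absence of overlap rests on a narrow gap. The log2 fold change was -0.68 ± 0.22 (95% interval -1.19 to -0.17) and missed the threshold (edgeR, adjusted p = 0.0588). Without S2 the fitted difference shrank to -0.36 ± 0.12 and passed (adjusted p = 0.0211), with a smaller standard error. It also passed without knockout library 3 (-0.86 ± 0.20, adjusted p = 0.0137). The value was negative in all 14 alternatives.

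At the 16p13 locus, miR-193b-3p, the strand with the described ESR1, PLAU and CCND1 targets, had 20.3, 16.1 and 16.6 CPM in ERβ libraries 1, 2 and 3. In knockout libraries S1, S2 and 3 it had 14.5, 20.6 and 13.9 CPM. The groups overlapped through S2, which exceeded every ERβ library, while S1 and 3 lay below all of them. The log2 fold change was 0.10 ± 0.17 (95% interval -0.29 to 0.50, edgeR adjusted p = 0.719), and without S2 it was 0.30 ± 0.13 (adjusted p = 0.0668). The interval over all 6 libraries takes in differences of either sign, so the data do not show that miR-193b-3p was the same in both groups.

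miR-193b-5p had 144, 192 and 169 counts in ERβ libraries 1, 2 and 3, against 132, 240 and 87 counts in knockout libraries S1, S2 and 3. Scaled, it averaged 12.4 ± 0.857 CPM with ERβ and 13.6 ± 5.66 CPM in knockout cells (SD, n = 3 each). The ERβ libraries were close together and sat inside the wide range of the knockout libraries. The log2 fold change was -0.14 ± 0.25 (95% interval -0.71 to 0.43, edgeR adjusted p = 0.742). Its sign turned without S2 (0.24 ± 0.14, adjusted p = 0.207) and with library totals as scaling (0.00380), so no direction can be given.

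**Figure D2:**
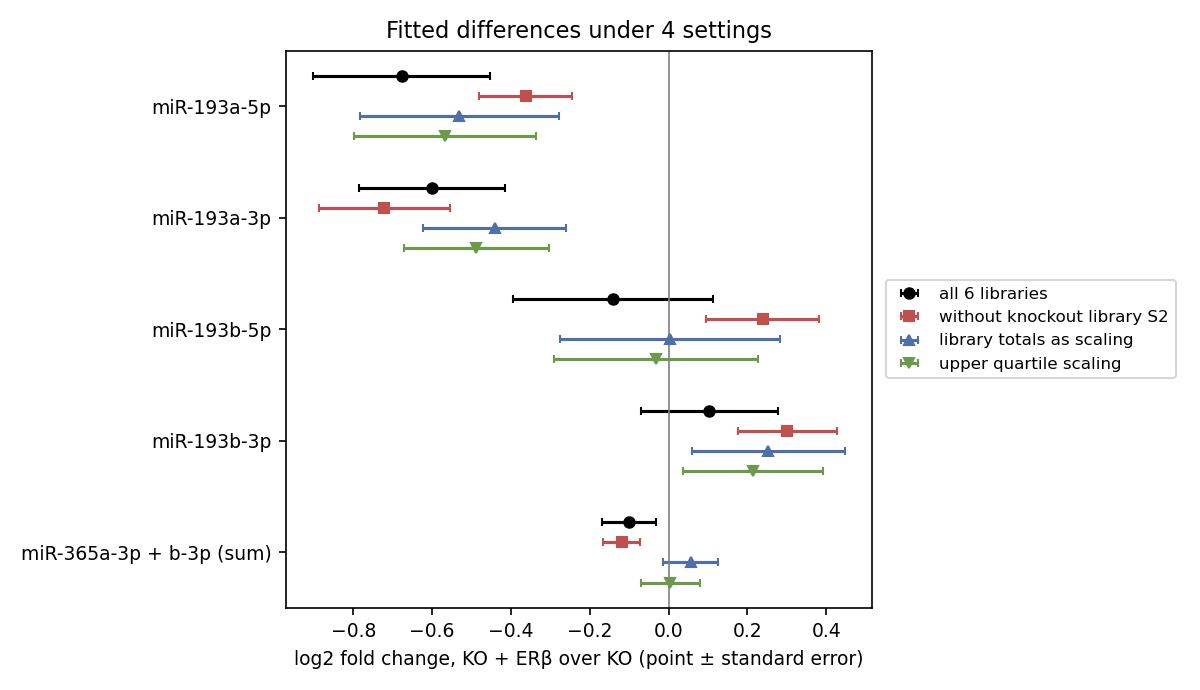
Fitted log2 fold changes (ERβ over knockout, point ± standard error) of the miR-193 strands and the summed miR-365-3p rows with all 6 libraries, without knockout library S2, with library totals and with upper quartile scaling. Both miR-193a strands stay left of 0 in the 4 settings, miR-193b-3p stays right of it, and miR-193b-5p and miR-365-3p change sign.

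The miR-365-3p rows carried nearly equal values in each library, as where shared reads are divided evenly, and they differed by 1 count in ERβ library 1 and in knockout library 3 and by none in the others. They are a single measurement. Their sum was 2050, 1914 and 1867 CPM in ERβ libraries 1, 2 and 3, against 2154, 2033 and 2065 CPM in knockout libraries S1, S2 and 3. The groups overlapped only in that ERβ library 1 exceeded S2. The sum averaged 1944 ± 95.1 CPM in ERβ libraries and 2084 ± 62.4 CPM in knockout libraries (SD, n = 3 each). Its log2 fold change of -0.10 ± 0.07 (95% interval -0.26 to 0.06) did not pass (edgeR, adjusted p = 0.356) and changed sign with the scaling, to 0.00469 by upper quartiles and 0.06 by library totals. Without S2 the log2 fold change was -0.12 ± 0.05 and narrowly missed the threshold (edgeR, adjusted p = 0.0508). The summed miR-365-3p was the best measured product of the clusters, at 20310 to 28648 counts per library. The interval over all 6 libraries leaves out changes as large as the fitted miR-193a differences.

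The 5p strands of miR-365, which are not among the 6 members but can be assigned to a locus, were scarce. miR-365a-5p, from 16p13, had 60, 58 and 52 counts in ERβ libraries 1, 2 and 3 and 42, 64 and 19 counts in knockout libraries S1, S2 and 3. miR-365b-5p, from 17q11, had 46, 46 and 42 counts in the ERβ libraries and 26, 85 and 29 counts in the knockout libraries. These counts were even across ERβ libraries, but the scaled levels were highest in ERβ library 1. In ERβ libraries 1, 2 and 3, miR-365a-5p had 5.41, 3.88 and 3.52 CPM and miR-365b-5p 4.15, 3.08 and 2.84 CPM. Both strands were highest in S2 among knockout libraries, and for both the groups overlapped. The log2 fold changes were 0.17 ± 0.32 for miR-365a-5p (95% interval -0.55 to 0.90) and -0.33 ± 0.38 for miR-365b-5p (-1.19 to 0.53). Neither passed (edgeR, adjusted p = 0.750 and 0.592), and without S2 miR-365b-5p turned to 0.32 ± 0.25. The neighbouring hairpin MIR4725, also at 17q11, gave 6 to 12 counts of miR-4725-3p per library and at most 2 of miR-4725-5p, too few to test.

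Ratios of counts within a library do not depend on how libraries are scaled to each other, and they set the 17q11 and 16p13 hairpins directly against each other. miR-193b-3p exceeded miR-193a-3p by 2.87, 2.93 and 3.39 times in ERβ libraries 1, 2 and 3, against 1.62, 2.79 and 1.40 times in knockout libraries S1, S2 and 3. The groups did not overlap, although S2 came close to the ERβ libraries. On the log2 scale the ratio averaged 1.61 ± 0.13 with ERβ and 0.89 ± 0.53 in knockout cells (SD, n = 3 each), a difference of 0.73 (two-sided exact permutation p = 0.1, the smallest p that 3 against 3 can give, and 0.267 adjusted over the 8 ratios computed).

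The 5p strands gave the same order with a tighter spread. miR-193b-5p stood at 0.644, 0.762 and 0.705 times miR-193a-5p in ERβ libraries 1, 2 and 3, against 0.484, 0.504 and 0.436 times in knockout libraries S1, S2 and 3. All ERβ libraries lay above all knockout libraries, and here S2 fell among the knockout libraries. The log2 ratio averaged -0.51 ± 0.12 with ERβ and -1.08 ± 0.11 in knockout cells (SD, n = 3 each), a difference of 0.57 (two-sided exact permutation p = 0.1, adjusted 0.267). With each library left out in turn the difference stayed between 0.51 and 0.63, and that of the 3p ratio between 0.52 and 1.02. This 5p ratio was added after the values were seen, and with the 3p ratio it draws on the same libraries.

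The log2 ratio of miR-365-3p to miR-193a-3p separated the groups, at 8.40 ± 0.20 in ERβ libraries and 7.90 ± 0.21 in knockout libraries (SD, n = 3 each; difference 0.50, two-sided exact permutation p = 0.1, adjusted 0.267). This ratio was added after the values were seen. It shares its miR-193a-3p counts with the 3p ratio above, so it is not a separate line of support. Against miR-193b-3p the log2 ratio of miR-365-3p was 6.79 ± 0.12 with ERβ and 7.02 ± 0.34 in knockout cells, and the groups overlapped (difference -0.23, two-sided exact permutation p = 0.4, adjusted 0.640). The ratio of miR-365a-5p to miR-365b-5p was 1.30, 1.26 and 1.24 in ERβ libraries 1, 2 and 3 and 1.60, 0.754 and 0.661 in knockout libraries S1, S2 and 3. It overlapped between groups (log2 difference 0.45, exact permutation p = 0.4, two-sided, adjusted 0.640). The difference was positive in all 9 alternatives, from 0.20 to 0.84. With 3 libraries against 3 the test cannot go below 0.1, and the knockout libraries spread widely. These scarce strands therefore show neither a shift between the loci nor its absence.

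**Figure D3:**
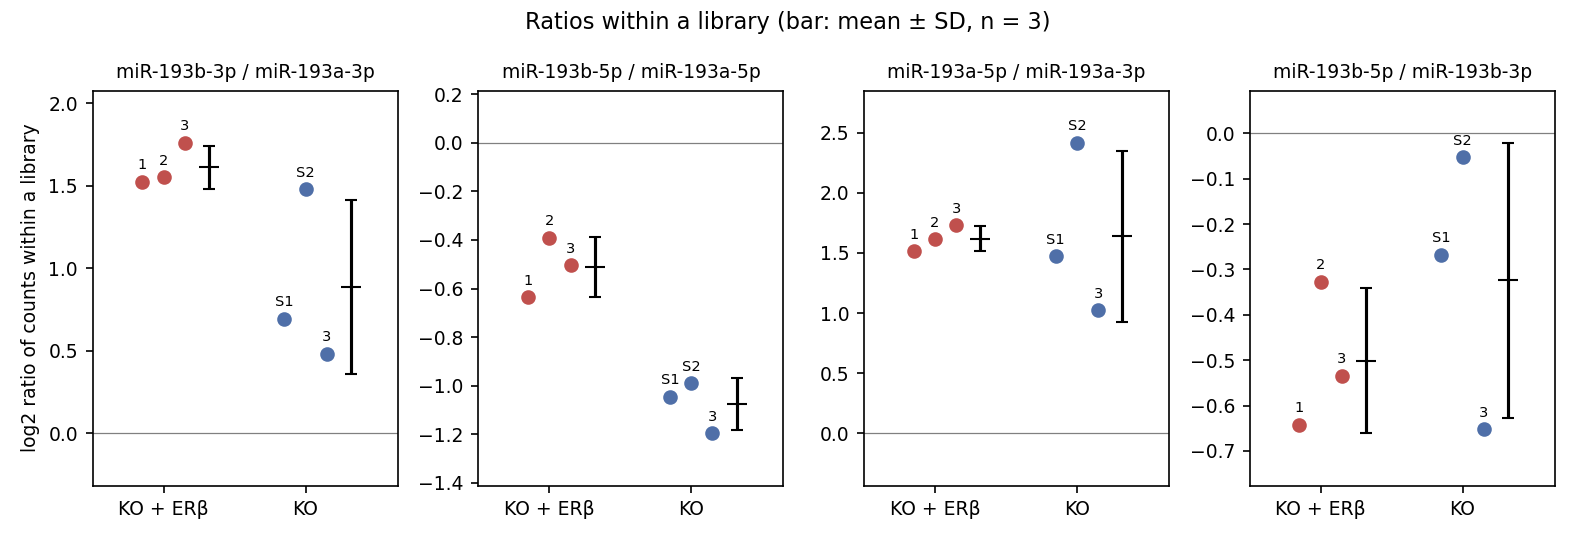
Log2 ratios of counts within each library for miR-193b over miR-193a (3p and 5p strands) and for the 5p over the 3p strand of each miR-193 hairpin; red points are ERβ libraries, blue points knockout libraries, black bars the mean ± SD (n = 3 each). Both ratios of miR-193b to miR-193a separate the groups, while the arm ratios overlap and S2 is the highest library in both.

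The balance between the arms of a hairpin was compared in the same way. miR-193a-5p exceeded miR-193a-3p by 2.86, 3.06 and 3.32 times in ERβ libraries 1, 2 and 3 and by 2.78, 5.34 and 2.04 times in knockout libraries S1, S2 and 3. In miR-193b the 3p strand was the larger one, with 5p at 0.641, 0.797 and 0.690 times 3p in the ERβ libraries and 0.831, 0.964 and 0.636 times in the knockout libraries. By count, which arm was the more abundant therefore differed between the paralogs in all 6 libraries. In S2, however, the miR-193b arms had 240 (5p) and 249 (3p) counts, with counting errors of 6.45 and 6.34%. The larger arm of miR-193b cannot be told in that library. Library S1 had 132 (5p) and 159 (3p) counts, so the order of the arms is uncertain there too. The arm ratios overlapped between groups. Their log2 difference was -0.02 for miR-193a (two-sided exact permutation p = 1, adjusted 1) and -0.18 for miR-193b (two-sided exact permutation p = 0.5, adjusted 0.667). The miR-193a value turned to 0.37 without S2. For miR-365 the 3p strands outnumbered the 5p strands by 213, 274 and 292 times in ERβ libraries 1, 2 and 3, against 346, 165 and 419 times in knockout libraries S1, S2 and 3, again with overlap.

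Over the tested miRNAs library S2 moved with the base composition of the mature strands, which the members followed only in part. Relative to the mean log2 CPM of S1 and 3, it was higher by 0.80 for miR-193a-5p, 0.91 for miR-193b-5p and 0.52 for miR-193b-3p, which all have 13 G or C among 22 bases (59.1%). For miR-193a-3p, with 11 of 22, the difference was -0.34, and for either miR-365-3p row, with 7 of 22 (31.8%), it was -0.05. The miR-365-5p strands, at 56.5 and 59.1%, were higher in S2 by 0.84 for miR-365a-5p and 1.26 for miR-365b-5p. Over the 690 of 783 tested miRNAs with a RefSeq mature sequence, Pearson's r between GC content and this difference was 0.53, a description of 1 library against 2 others. The same difference had a median of 0.42 over the 100 miRNAs with at least 60% GC, 0.05 over the 320 from 45 to 60% and -0.22 over the 270 under 45%. At 50.0% GC, miR-193a-3p lay below the median of the middle set and below miR-365-3p. That value rests on 98, 89 and 98 counts in knockout libraries S1, S2 and 3, and a single miRNA can scatter about such a trend. For ERβ library 1 against the mean of ERβ libraries 2 and 3, Pearson's r with GC content was 0.19. For the log2 fold change between the groups it was -0.15. The part of GC content in the group comparison was not tested.

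**Figure D4:**
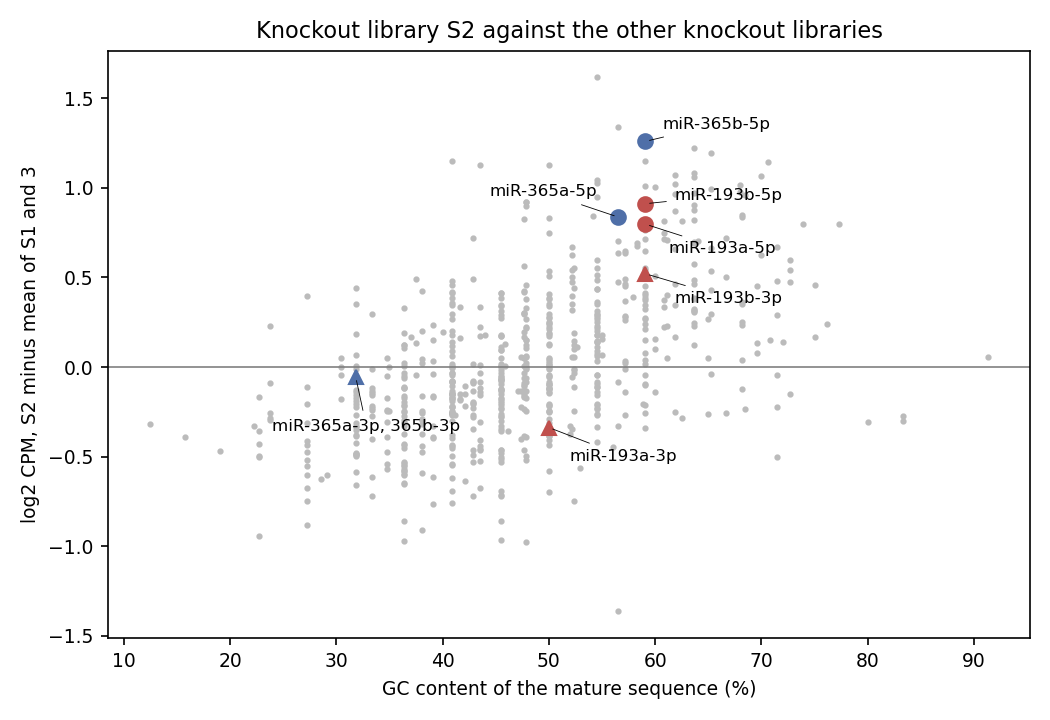
Log2 CPM in knockout library S2 minus the mean of knockout libraries S1 and 3 (y axis) against GC content of the mature sequence in percent (x axis), for 690 tested miRNAs (grey) with the miR-193 strands (red) and miR-365 strands (blue), 5p as circles and 3p as triangles. miR-193a-5p, both miR-193b strands and the miR-365-5p strands lie above 0, while miR-193a-3p and miR-365-3p lie below 0.

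The members were set beside other miRNAs described to act on the same targets. Of 8 miRNAs that target ESR1, 6 were tested, 1 was higher and 3 lower, against 23.1% of all tested miRNAs passing in either direction. The list's median log2 fold change was -0.36, and -0.20 by library totals. miR-22-3p, a repressor of ESR1, fell to 1045, 992 and 979 CPM in ERβ libraries 1, 2 and 3, against 1436, 1380 and 1330 CPM in knockout libraries S1, S2 and 3 (-0.46 ± 0.07, edgeR adjusted p = 0.00140). miR-222-3p also fell (-0.37 ± 0.07) and miR-18a-5p rose (0.67 ± 0.13), while miR-193b-3p did not pass. Of the 6 tested, 5 had no overlap between groups, against 39.8% of all tested miRNAs. The counts were 1 higher and 1 lower with library totals and without ERβ library 2, where miR-222-3p lost its call.

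Of 15 miRNAs described to target CCND1, including miR-193b-3p and miR-365a-3p, 2 were higher and 4 lower (9.83% and 13.3% over all tested miRNAs), with a median log2 fold change of -0.03. Scaling by upper quartiles turned this median to 0.08, and scaling by library totals to 0.12. The counts were 5 higher and 4 lower with library totals, and 0 higher and 4 lower without ERβ library 1, 2 or 3. The listed miRNAs with the smallest adjusted p were miR-424-5p, at 0.468 of its knockout level, miR-195-5p, at 0.499, and miR-497-5p, at 0.609. Each was lower in all ERβ libraries than in any knockout library. Of the 15, 9 had no overlap between groups, against 39.8% of all tested miRNAs. These 3 belong to the miR-15/16 family, of which miR-15a-5p (0.09 ± 0.08), miR-15b-5p (-0.03 ± 0.09) and miR-16-5p (-0.004 ± 0.06) did not pass. The 2 higher miRNAs were miR-17-5p and miR-20a-5p. Of 9 miRNAs described to target MCL1, 8 were tested and 1 passed, miR-193a-3p itself, where 23.1% of all tested miRNAs passed. Its companions of smallest adjusted p were miR-125b-5p (-0.25 ± 0.11), miR-29a-3p (0.13 ± 0.06) and miR-29c-3p (-0.18 ± 0.09), and none of these passed with all libraries (edgeR, adjusted p = 0.124, 0.172 and 0.176). This list had 1 higher and 3 lower when S2 was left out, 2 higher and 0 lower with library totals, and 0 in either direction when S1, knockout library 3, ERβ library 2 or ERβ library 3 was left out. The lists were written from known targets, but with earlier results of these data in view.

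Among 385 other tested miRNAs averaging at least 10 CPM, those whose log2 CPM over the 6 libraries followed the most abundant member row, miR-365b-3p, most closely were miR-3182 (Pearson's r = 0.89), miR-375-3p (0.89), miR-1468-5p (0.88), miR-181a-2-3p (0.87) and miR-425-5p (0.86). These are descriptions over 6 libraries that share their scaling, and the SD of miR-365b-3p over them was only 0.08 on the log2 scale. Of these 5, 1 passed the test, miR-375-3p, a miRNA enriched in luminal breast cells, where 23.1% of all tested miRNAs passed. Without S2 3 passed, with miR-181a-2-3p and miR-425-5p also lower (edgeR, adjusted p = 0.0213 and 1.19e-05), where 279 of 800 tested miRNAs passed. The 5 were chosen for following miR-365b-3p over these same 6 libraries, so their shared direction is not a separate result. miR-375-3p averaged 188 ± 17.3 CPM with ERβ and 279 ± 23.0 CPM in knockout cells (SD, n = 3 each), a log2 fold change of -0.57 ± 0.10 (edgeR, adjusted p = 0.00320).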

How the data were processed

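Small RNA libraries were made with a QIAseq miRNA kit, per the labels' protocols. FastQC, Trim Galore and build GRCh38 are named, per the submitters' processing notes. Neither source names the aligner, the counter, the miRNA annotation or any collapsing of molecular identifiers. The authors deposited expected counts for each mature miRNA. Between 6.33 and 7.27% of the values in a library are fractions. Columns were grouped by name. The number 1 stands on 2 knockout columns and the number 2 on none, so S1 and S2, called after the end of their column names, are known by group only.

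Expected counts were rounded and tested in R 4.3.3 with edgeR 4.0.16 over all 6 libraries without covariates: filterByExpr with a minimum count of 10 and total of 15, scaling by TMM, the quasi-likelihood test in its robust form, and adjustment by Benjamini-Hochberg (783 miRNAs, threshold 0.05). Standard errors are log2 fold changes divided by the square root of F. In the summed fit the miR-365-3p rows were replaced by their sum (782 tested). Ratios used rounded counts with 0.5 added. A count of 3 is 0.201 to 0.305 CPM, and counting errors do not cover amplification. Alternatives used DESeq2 1.42.0 and limma 3.58.1, and figures matplotlib 3.10.9. The test was tried on simulated data. The members, lists and naming rule were chosen with earlier results of these data known. The rule names all members, cluster neighbours with counts, up to 3 others per target list by adjusted p, and the 5 nearest patterns. Of the 8 ratios 4 were added after values were seen: miR-193b-5p to miR-193a-5p, miR-365-3p to miR-193a-3p, miR-365a-5p to miR-365b-5p, and miR-365-3p to miR-365-5p. The GC description was also added after values were seen.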

Additional observations from a re-analysis of the deposited data

How the results depend on the processing

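The fitted miR-193a-5p and miR-193a-3p values were negative, and those of miR-193b-3p positive, in every alternative that could be fitted; miR-193a-3p was not kept by the filter of 10 CPM in 3 libraries. With upper quartile factors 123 miRNAs were higher, 70 lower and 0 members passed (miR-193a-3p -0.49; miR-365a-3p 0.0104, miR-365b-3p 0.0103 and their sum 0.00469). With library totals 146 were higher, 61 lower and 0 members passed (miR-193a-3p -0.44, miR-193b-5p 0.00380; miR-365a-3p 0.0560, miR-365b-3p 0.0559 and their sum 0.0560). These scalings moved the median of all tested miRNAs from -0.01 to 0.10 and 0.14. Without a filter 2 members passed (miR-193a-5p -0.63), and with 10 CPM in 3 libraries 66 miRNAs were lower and 0 members passed. With the DESeq2 test miR-193a-5p passed (-0.67) and miR-193a-3p did not (-0.59). Limma-voom and DESeq2 size factors changed no member's call.

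In the fit with a replicate block by column number, 38 miRNAs were higher, 50 lower and 0 members passed (miR-193a-3p -0.56, adjusted p = 0.235). The groups share only the numbers 1 and 3, same-numbered libraries had correlations of deviations of -0.10, 0.13 and 0.12, and the labels name no shared culture or day, so the numbers were not taken as pairs.

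With a library left out, where 2 libraries stand against 3, 49 to 122 miRNAs were higher, 58 to 157 lower and 0 to 2 members passed. The ranges were -0.86 to -0.36 for miR-193a-5p, -0.72 to -0.49 for miR-193a-3p, -0.36 to 0.24 for miR-193b-5p (0.24 without S2), -0.12 to -0.06 for either miR-365-3p row, -0.12 to 0.52 for miR-365a-5p (-0.12 without knockout library 3) and -0.62 to 0.32 for miR-365b-5p (0.32 without S2). The arm ratio of miR-193a ranged from -0.32 to 0.37, being 0.37 without S2 and 0.03 without ERβ library 1. The ratio of miR-365-3p to miR-365-5p turned to 0.11 without knockout library 3. Adding 0 or 5 to counts, or leaving them unrounded, turned no ratio. The cause of these changes was not tested. Depth limits the values of miR-193a-3p and the miR-365-5p strands, which had 19 to 98 counts per library.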
